A study of Macaca mulatta with 9 samples.

Results

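Whole-blood gene expression was compared between 3 rhesus macaques (Macaca mulatta) injected with extracellular vesicles named FBMSC and 3 injected with PBS, the vehicle. These are 6 of the 9 libraries of the series, taken by their labels, and every gene of the table was compared. The 9 animals had been assigned to their groups at random. All are labelled wild type (WT), and the PBS animals are called Old in their descriptions. The labels give no dose, number of injections, sampling time or age, and do not spell out FBMSC. The other 3 animals received vesicles named ABPC (antler blastema progenitor cells in the series title) and serve below as a second vesicle group. Groups are written PBS, FBMSC_EV and ABPC_EV.

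Extracellular vesicles are membrane-bound particles that cells release and that can carry protein and RNA to other cells. Whole blood RNA mixes transcripts of reticulocytes, which hold large amounts of globin mRNA, with those of platelets, neutrophils, monocytes and lymphocytes. In such bulk samples, fewer cells of a type and less RNA per cell cannot be told apart. Defining markers of each of these cells (HBB, PPBP, S100A9, LYZ, CD3E and CD79A) were present in all 6 libraries. The values are per-million shares of each library's total, so the share taken by globin sets the room left for all other genes together. They are not shares of reads, because the value of 1 read differed between genes.

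Globin transcripts took most of that total in all 6 libraries, and a smaller part of it after FBMSC_EV. HBB, HBA and HBA1, which encode the beta and alpha chains of hemoglobin, together made up 92.7%, 88.2% and 88.2% of the per-million total in PBS replicates 1 to 3. In FBMSC_EV replicates 1 to 3 they made up 82.3%, 82.5% and 87.6%. The groups did not overlap, although FBMSC_EV replicate 3 lay close to the PBS animals. The means were 84.2% ± 3.01 after FBMSC_EV and 89.7% ± 2.57 after PBS (SD, n = 3 each), a two-sided exact permutation p of 0.1, the smallest that 3 against 3 can give.

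Before genes were compared, each library was divided by a scaling factor. The factor is the median ratio of its genes to their geometric mean over the 9 libraries. It uses the 13350 genes above 0 in all of them. The factors were 0.330, 0.470 and 0.767 under PBS and 0.985, 1.21 and 0.957 under FBMSC_EV. Globin share alone did not set them, as PBS replicates 2 and 3, both at 88.2%, had factors of 0.470 and 0.767. The factors did not overlap between PBS and FBMSC_EV. Their means of 0.522 ± 0.223 and 1.05 ± 0.136 (SD, n = 3 each) differed 2.01-fold (exact permutation p = 0.1). Reads recovered from the values, counted outside the erythroid list, numbered 3.02, 5.15 and 4.76 M (1 M is 1000000 reads) under PBS and 6.89, 7.08 and 5.24 M under FBMSC_EV, so that low genes rest on fewer reads in the PBS libraries. All levels below are scaled values. The number of genes with a scaled value of at least 1 was 9044 ± 192 under PBS and 9099 ± 96.4 under FBMSC_EV (SD, n = 3 each, exact permutation p = 0.7).

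**Figure D1:**
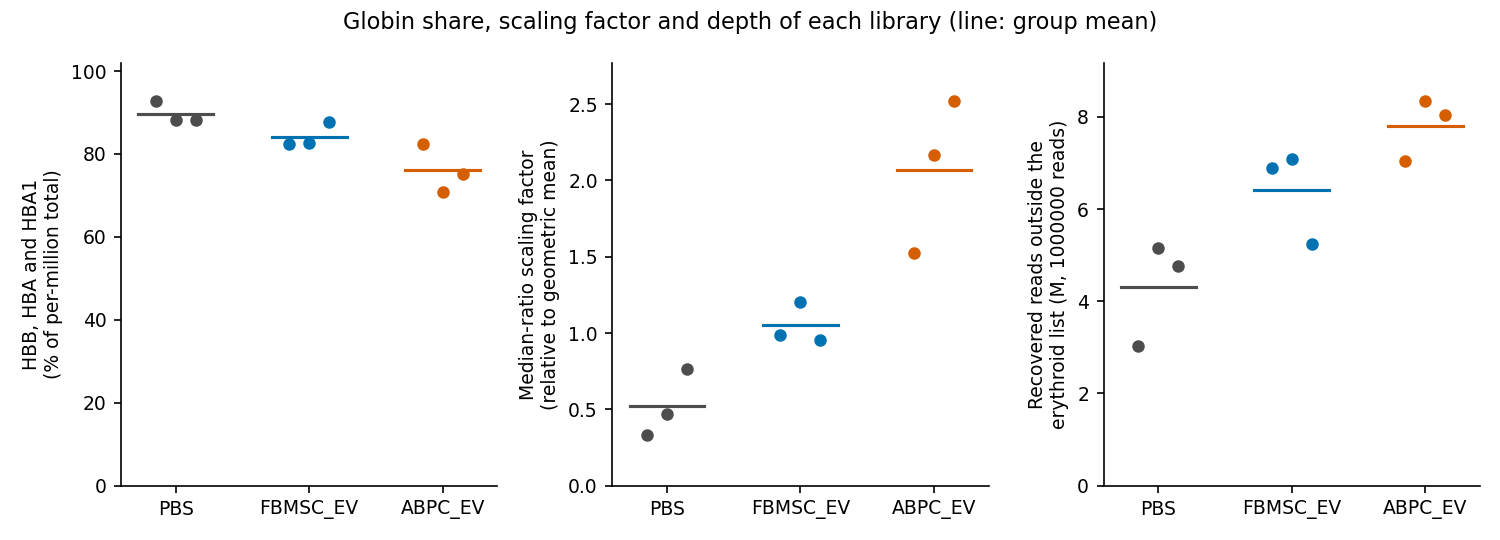
Globin share of the per-million total (%), median-ratio scaling factor (no unit) and recovered reads outside the erythroid list (M) in each of the 9 libraries, with points for replicates 1 to 3 and a line for the group mean. Globin share is lower and the scaling factor higher in all 3 FBMSC_EV libraries than in any PBS library, and ABPC_EV replicate 1, at 82.4%, shares the range of FBMSC_EV.

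After scaling, no gene passed the threshold. Of 9812 genes tested with limma, 0 had an adjusted p under 0.05 (0.0%), and the smallest adjusted p was 0.182. At an unadjusted p under 0.05 there were 472 genes (4.81%), 206 higher after FBMSC_EV (2.1%) and 266 lower (2.71%). limma's voom method on the recovered reads also called 0 genes, with 404 at an unadjusted p under 0.05. Without PBS replicate 2, 2 uncharacterised loci (LOC106996566 and LOC114673003) passed as lower. All 3 FBMSC_EV libraries lay above all 3 PBS libraries in 460 genes (4.69%) and below them in 482 (4.91%), 942 in all (9.6%). The differences were centred near 0, with a median of 0.01 on the log2 scale. log2 differences are FBMSC_EV minus PBS on log2(scaled value + 1), which understates the difference of low genes. What follows therefore describes levels and directions, none of which passed the correction across genes.

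**Figure D2:**
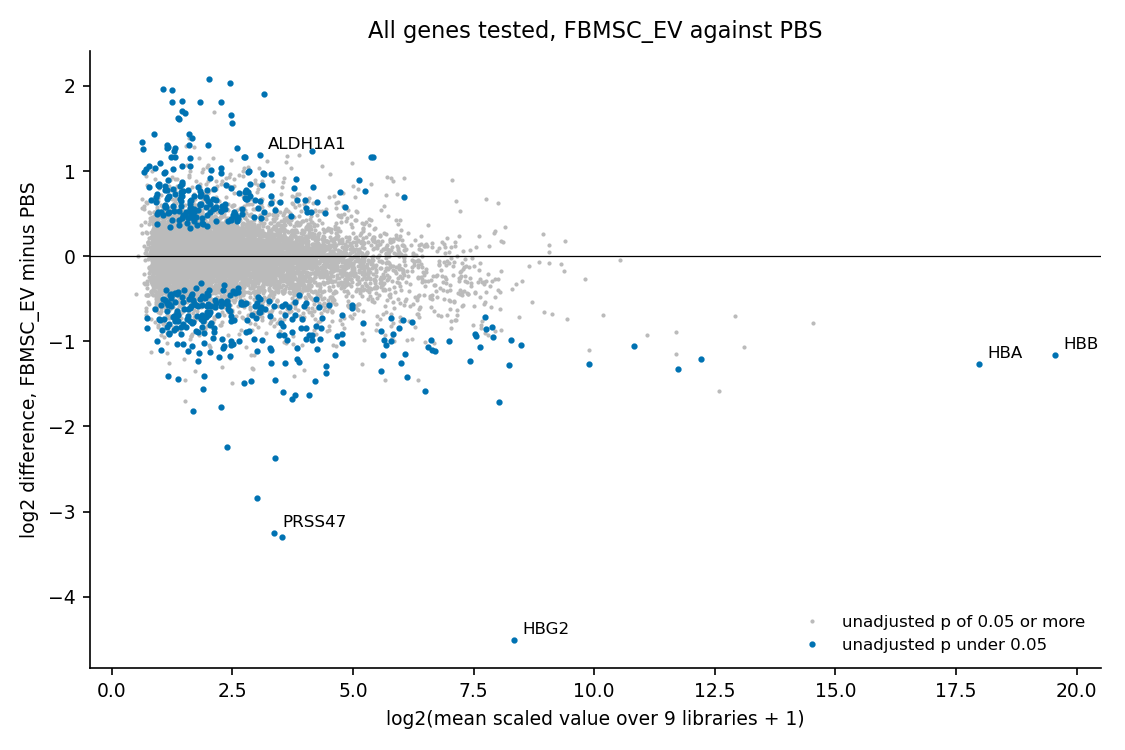
Mean scaled value over the 9 libraries, as log2(value + 1), against the log2 difference of FBMSC_EV minus PBS for the 9812 genes tested; blue marks the 472 genes with an unadjusted p under 0.05. HBG2 lies lowest at -4.51, and HBB and HBA, at the right edge, lie at -1.16 and -1.26.

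Red cell genes were lower in nearly all members after FBMSC_EV, and the gamma globin gene HBG2 had the lowest log2 difference of any gene tested. HBG2, which encodes a fetal chain of hemoglobin, had levels of 981, 161 and 1641 in PBS replicates 1 to 3 and of 35.7, 27.4 and 20.2 in FBMSC_EV replicates 1 to 3. Every PBS library was above every FBMSC_EV library, but the PBS animals themselves spanned a wide range. The means, 928 ± 742 and 27.8 ± 7.75 (SD, n = 3 each), stood 33.4-fold apart, with a log2 difference of -4.51 (SE 0.89, limma adjusted p = 0.454). The recovered reads behind these levels were 6244, 1536 and 19994 under PBS and 536, 499 and 319 under FBMSC_EV. In ABPC_EV the levels were also low, at 31.1, 3.15 and 7.06. Leaving out any 1 library kept the log2 difference between -5.50 and -3.83.

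The adult globins followed with smaller differences. Given in units of 1000, HBB stood at 2029, 1355 and 862 under PBS and at 590, 515 and 693 under FBMSC_EV, a log2 difference of -1.16 (SE 0.47, limma adjusted p = 0.999). HBA stood at 712, 485 and 272 against 227, 156 and 192 in the same units, a log2 difference of -1.26 (SE 0.46, limma adjusted p = 0.949). Neither gene overlapped between the groups on this scale. On the per-million values as deposited both overlapped, and the log2 differences were -0.08 for HBB (limma adjusted p = 0.604) and -0.18 for HBA (limma adjusted p = 0.342). There HBB made up 67.0%, 63.7% and 66.1% of the total under PBS and 58.1%, 62.1% and 66.3% under FBMSC_EV, and HBA 23.5%, 22.8% and 20.9% against 22.3%, 18.8% and 18.3%. On the scaled values HBA1 did overlap, with 64.9, 37.8 and 16.1 under PBS and 18.9, 13.2 and 30.9 under FBMSC_EV. Globin genes have near-identical copies, and how reads that fit several of them were assigned is not given in the sources used here, so the split between HBA and HBA1 is uncertain.

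The whole erythroid list had 53 tested members, of which 47 had a log2 difference below 0 (all genes: 47.9%), 7 an unadjusted p under 0.05 on the lower side (all genes: 2.71%) and 8 no overlap, with FBMSC_EV below (all genes: 4.91%). Its median log2 difference was -0.47, against 0.01 for all genes. Beside the globins, the lowest unadjusted p belonged to STRADB, CA1, EPOR and FAM210B. CA1, a carbonic anhydrase of red cells, stood at 252, 500 and 233 under PBS and 200, 132 and 84.2 under FBMSC_EV. EPOR, the erythropoietin receptor, stood at 26.8, 8.46 and 4.84 against 2.53, 3.59 and 3.49. ALAS2, which starts heme synthesis in red cell precursors, stood at 6816, 9370 and 2423 against 2881, 2376 and 2049, and its groups overlapped.

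Summed over the list, red cell levels were higher in PBS replicates 1 and 2 than in PBS replicate 3, although HBG2 was highest in PBS replicate 3. Summed over the 49 listed genes that are not globins, the level was 13109.5, 15322 and 4978 under PBS and 6216, 4711 and 4539 under FBMSC_EV, so PBS replicate 3 lay inside the FBMSC_EV range. The median of the list was -0.26 without PBS replicate 1 and -0.84 without PBS replicate 3. In ABPC_EV the same sum was 3546, 1908 and 2328.

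**Figure D3:**
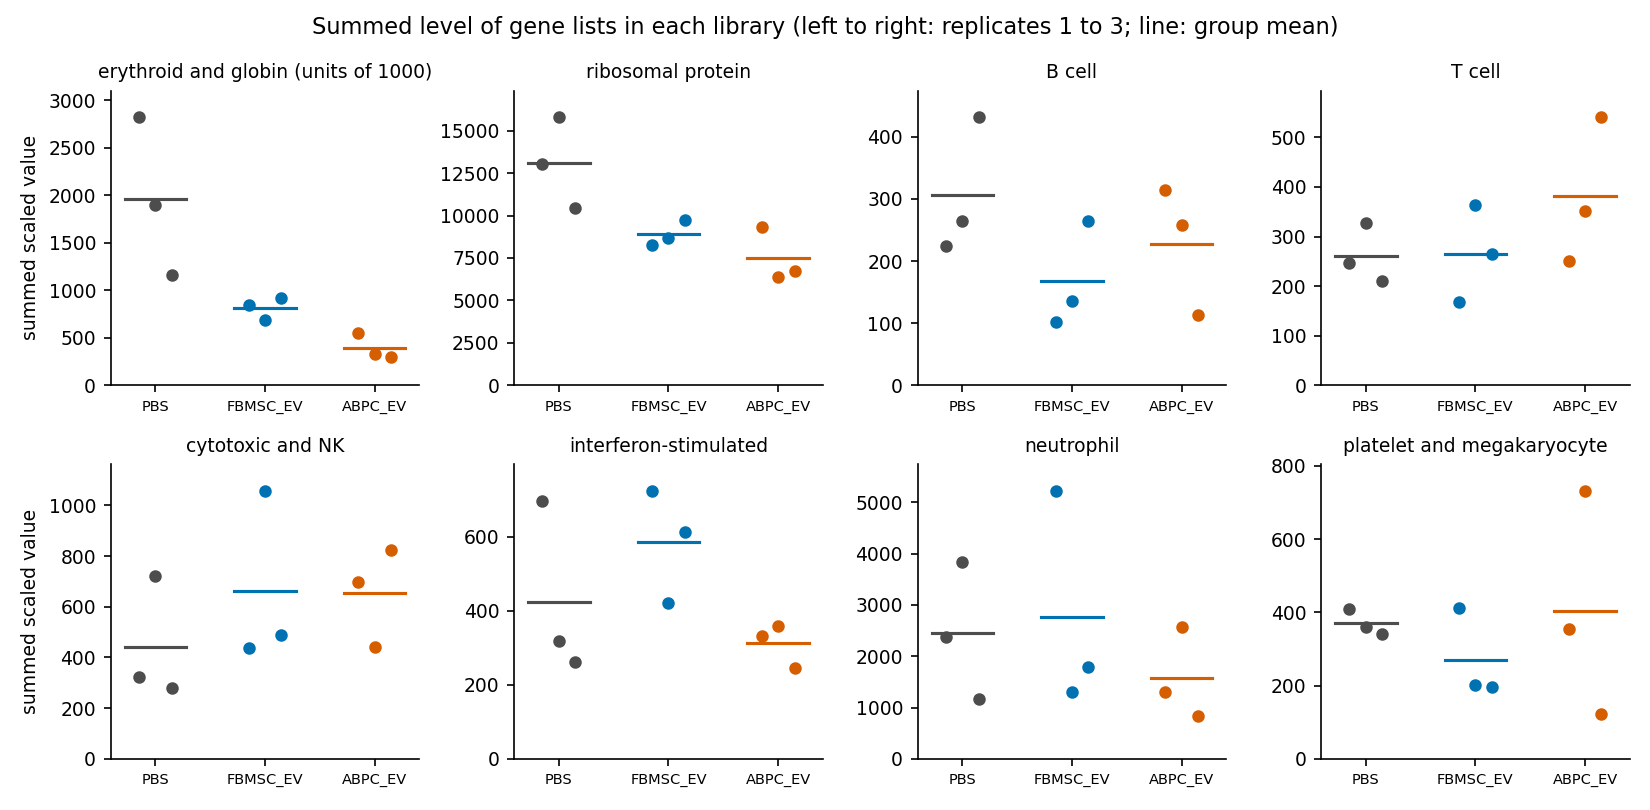
Summed scaled value of 8 gene lists in each library (the erythroid list in units of 1000), with replicates 1 to 3 from left to right and a line for each group mean. The erythroid and ribosomal protein sums do not overlap between PBS and FBMSC_EV, while PBS replicate 1 reaches the FBMSC_EV level of interferon-stimulated genes and FBMSC_EV replicate 1 is the highest of the 9 for neutrophil genes.

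B cell genes were lower after FBMSC_EV in each of the 17 members tested (all genes below 0: 47.9%), with a list median of -0.74, the lowest of the 34 lists. Of the 17, 2 had an unadjusted p under 0.05 on the lower side, FCRLA and CD79B (all genes: 2.71%). FCRLA was the 1 member with no overlap between the groups (all genes below: 4.91%). FCRLA, an Fc receptor-like protein inside B cells, stood at 7.69, 9 and 10.7 under PBS and 1.67, 1.76 and 5.22 under FBMSC_EV, with no overlap (log2 difference -1.49, SE 0.39, limma adjusted p = 0.754). CD79A, a signalling chain of the B cell receptor, stood at 54.0, 66.3 and 92.9 against 22.7, 36.5 and 69.9, and MS4A1, which encodes the surface protein CD20, at 33.2, 36.4 and 76.9 against 16.4, 17.0 and 39.7. For both, FBMSC_EV replicate 3 lay within the range of the PBS animals. The summed level of the list was 224, 265 and 431 under PBS and 101, 136 and 265 under FBMSC_EV. Without PBS replicate 3 the median was -0.44, and without FBMSC_EV replicate 3 it was -0.95. In ABPC_EV replicate 3 the sum was also low, at 113, beside 314 and 257 in replicates 1 and 2.

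The plasma cell list held 2 of 10 members with no overlap, JCHAIN and DERL3 (all genes below: 4.91%). JCHAIN, which joins IgM and IgA into polymers, stood at 14.0, 17.2 and 28.2 under PBS and 5.05, 8.97 and 8.91 under FBMSC_EV (log2 difference -1.25, SE 0.32, limma adjusted p = 0.754). CXCR5, which is not a plasma cell gene but the chemokine receptor that guides B cells and follicular helper T cells into follicles, also had no overlap and stood at 8.29, 10.1 and 14.7 against 3.22, 4.32 and 6.54 (log2 difference -1.08, SE 0.30, limma adjusted p = 0.884). DERL3 had levels of 2.07, 1.43 and 2.21 against 0.988, 0.875 and 0.488. The list as a whole was mixed, with 7 of 10 members below 0 and a median of -0.20, or -0.36 without PBS replicate 2. XBP1, the transcription factor of secretory cells and its most abundant member, overlapped, at 57.8, 19.3 and 16.3 against 29.5, 17.1 and 25.7.

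The T cell list as a whole lay near 0, and 3 of its 25 tested members, CCR7, TCF7 and LEF1, were below every PBS library in every FBMSC_EV library (all genes: 4.91%). The same 3 had an unadjusted p under 0.05 on the lower side (all genes: 2.71%), and TCF7 and LEF1 are named because of these values. CCR7, the receptor that brings naive T cells to lymph nodes, stood at 20.5, 30.5 and 20.1 under PBS and 9.25, 5.43 and 9.43 under FBMSC_EV. Its means of 23.7 ± 5.91 and 8.03 ± 2.26 (SD, n = 3 each) stood 2.95-fold apart, a log2 difference of -1.46 (SE 0.36, limma adjusted p = 0.722). TCF7, a transcription factor of naive and memory T cells, stood at 16.9, 18.4 and 12.7 against 7.78, 10.2 and 9.35. LEF1, a related factor, stood at 4.06, 3.15 and 2.49 against 1.94, 1.43 and 1.61.

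The other T cell genes did not share that direction. Of the 25 tested, 14 lay above 0 and 11 below, with a median of 0.07. CD3E, a chain of the T cell receptor complex, averaged 31.7 ± 6.84 under PBS and 31.7 ± 9.21 under FBMSC_EV (SD, n = 3 each). CD8A, which marks cytotoxic T cells, stood at 10.1, 20 and 12 against 12.7, 32.8 and 19.7. CD4 stood at 7.04, 7.42 and 6.68 against 4.60, 7.27 and 4.46. TESPA1, which takes part in T cell receptor signalling during thymocyte development and was not on the list, stood at 19.4, 19.6 and 21.7 against 7.95, 5.51 and 12.3, without overlap.

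Cytotoxic lymphocyte and natural killer genes were mostly higher after FBMSC_EV. Of 23 tested, 17 lay above 0 (all genes: 52.1%), 4 had an unadjusted p under 0.05 on the higher side (all genes: 2.1%) and 5 had no overlap, with FBMSC_EV above (all genes: 4.69%). The median log2 difference was 0.47. PRF1, the pore-forming protein perforin, stood at 13.7, 29.1 and 15.8 under PBS and 26.6, 83.6 and 35.0 under FBMSC_EV, where FBMSC_EV replicate 1 fell below PBS replicate 2. EOMES, a transcription factor of cytotoxic cells, stood at 1.72, 2.16 and 1.97 against 2.70, 5.80 and 2.64, and FASLG, a death ligand, at 1.78, 1.40 and 1.44 against 2.88, 5.32 and 1.90. Neither overlapped. XCL1, a chemokine of activated cytotoxic cells, had the lowest unadjusted p of the list at 0.846, 0.281 and 0.442 against 1.43, 2.36 and 1.37, but these levels rest on 2, 1 and 2 recovered reads under PBS and 8, 16 and 8 under FBMSC_EV.

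FBMSC_EV replicate 2 had the highest cytotoxic levels. GZMB, the protease granzyme B, stood at 61.8, 178 and 46.0 under PBS and 105, 280 and 113 under FBMSC_EV, with the groups overlapping. KLRD1, an inhibitory receptor subunit of natural killer cells, stood at 9.52, 9.78 and 10.6 against 10.9, 41.0 and 23.0. The list's summed level was 324, 723 and 279 under PBS, 438, 1057 and 487 under FBMSC_EV and 697, 439 and 824 under ABPC_EV. Without FBMSC_EV replicate 2 the median was 0.22, with 14 of 22 members above 0, and without FBMSC_EV replicate 3 it was 0.75. For ABPC_EV minus PBS the list median was 0.40, so the higher side was not particular to FBMSC_EV.

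Interferon-stimulated genes had the highest list median, 0.65, with 31 of 33 tested members above 0 (all genes: 52.1%). They encode antiviral proteins that most cells make after type I interferon binds its receptor. Of the 33, 4 had an unadjusted p under 0.05 (all genes higher: 2.1%), IFI35, EIF2AK2, STAT2 and IFIT2, and 2 had no overlap (all genes above: 4.69%). IFI35 was the most even of these, at 14.3, 11.4 and 11.6 under PBS and 20.5, 21.2 and 18.6 under FBMSC_EV (log2 difference 0.65, SE 0.22, limma adjusted p = 0.933). EIF2AK2, the kinase PKR that halts translation on sensing double-stranded RNA, stood at 3.17, 1.34 and 1.86 against 5.13, 3 and 3.74, and its groups overlapped.

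The PBS animals differed widely from each other in interferon-stimulated genes. MX1, a GTPase that blocks virus replication, stood at 22.1, 5.32 and 5.57 under PBS and 35.6, 15.7 and 17.7 under FBMSC_EV. IFIT2, which restrains translation of viral RNA, stood at 25.1, 6.71 and 6.50 against 43.3, 14.3 and 28.4. In both, PBS replicate 1 was high and lay above at least 1 FBMSC_EV library. The summed level of the list was 697, 317 and 261 under PBS, 724, 420 and 614 under FBMSC_EV and 332, 360 and 246 under ABPC_EV. The median was 1.03 without PBS replicate 1 and was 0.42 without PBS replicate 2, and without PBS replicate 3 the members above 0 numbered 26 of 33.

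Other genes linked to immune activation gave smaller medians. CXCL10, a chemokine made in response to interferon gamma, stood at 1.47, 0.327 and 1.80 under PBS and 1.25, 7.38 and 6.34 under FBMSC_EV, overlapping at FBMSC_EV replicate 1 and resting on 3, 1 and 7 reads under PBS. The interferon gamma list had 6 of 10 members above 0 and a median of 0.16, and IDO1, its most abundant member, averaged 138 ± 40.6 against 152 ± 53.4 (SD, n = 3 each). Class I antigen loading had 17 of 19 members above 0 (all genes: 52.1%) and a median of 0.18. It had 0 at an unadjusted p under 0.05 (all genes: 4.81%). Without PBS replicate 3 its median was 0.11. B2M, the light chain of class I molecules, averaged 1762 ± 372 against 1715 ± 474 (SD, n = 3 each). Class II genes lay the other way, with 16 of 19 below 0 (all genes: 47.9%). Their median was -0.13 and turned to 0.02 without PBS replicate 3. CD74, the class II invariant chain, stood at 899, 867 and 1294 against 812, 750 and 941. In the inflammation list (median 0.14, or -0.04 without PBS replicate 3, 19 of 28 above 0) ICAM1, an adhesion molecule for leukocytes, stood at 1.27, 1.27 and 1.47 against 2.2, 3.37 and 2.53, without overlap (log2 difference 0.65, SE 0.20, limma adjusted p = 0.884).

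**Figure D4:**
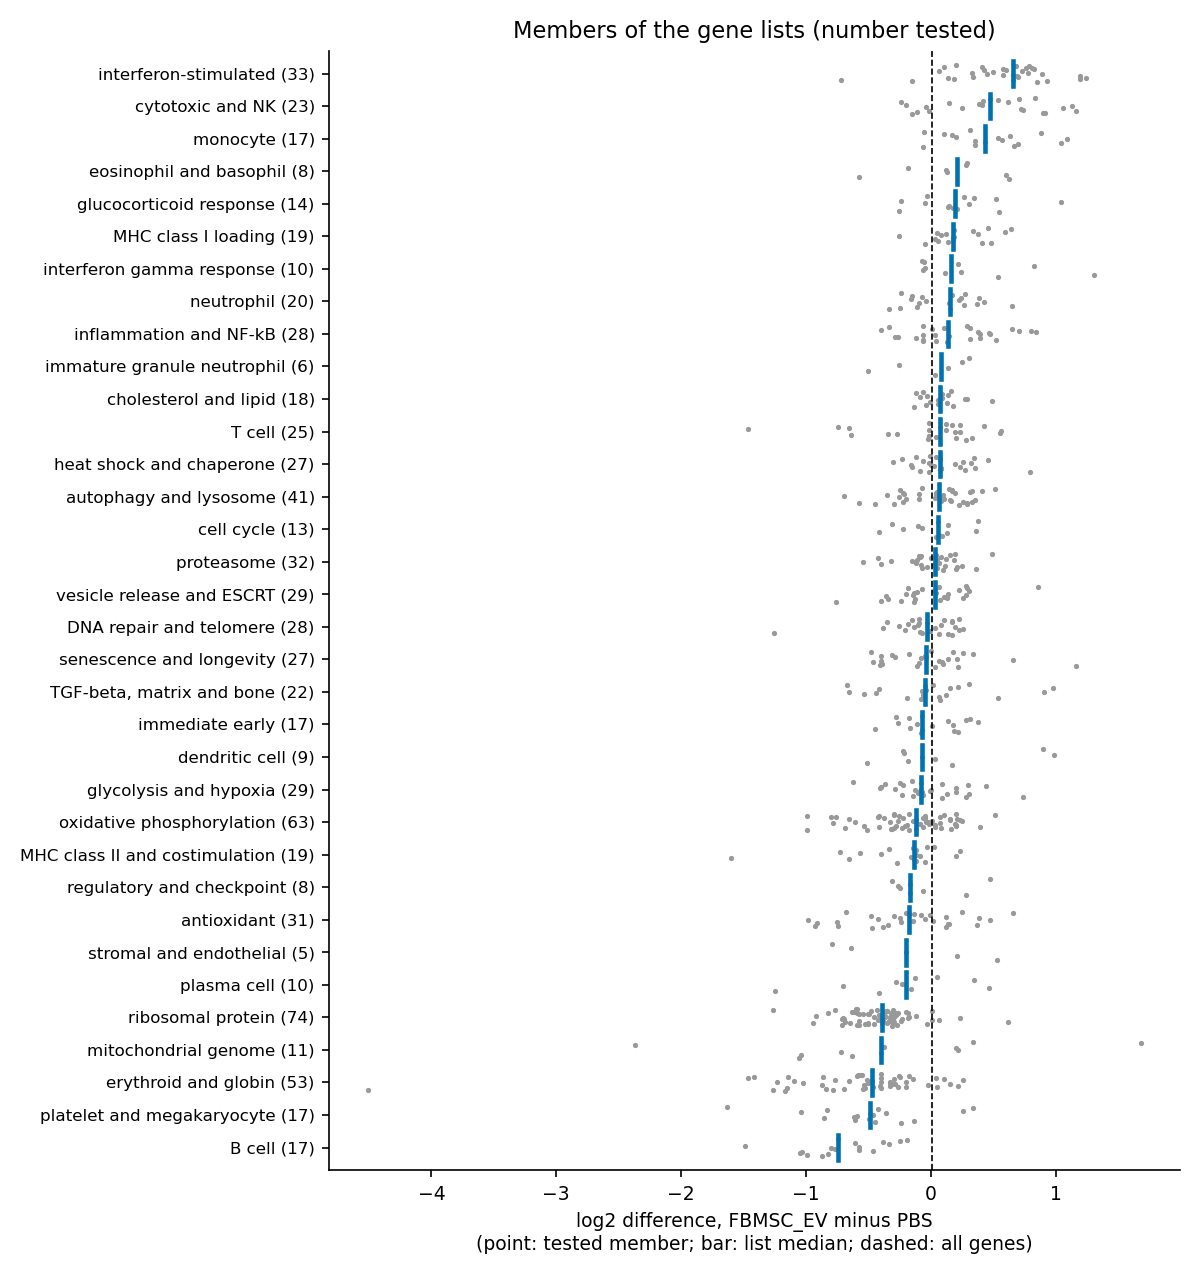
log2 difference, FBMSC_EV minus PBS, of every tested member of the 34 gene lists (grey points, number tested in brackets), with the list median as a blue bar and the median of all genes as a dashed line. Interferon-stimulated, cytotoxic and monocyte lists sit at the upper end, and B cell, platelet and erythroid lists at the lower end.

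Myeloid genes varied widely between the animals of both groups. Of the monocyte list 15 of 17 members lay above 0 (all genes: 52.1%), with a median of 0.43. At an unadjusted p under 0.05 there were 0 (all genes: 4.81%). With FBMSC_EV above, 1 had no overlap (all genes: 4.69%). LYZ, the lysozyme of monocytes and granulocytes, stood at 243, 131 and 161 under PBS and 576, 227 and 157 under FBMSC_EV. CX3CR1, the fractalkine receptor carried by patrolling monocytes and also by cytotoxic lymphocytes, stood at 8.68, 23.4 and 13.7 against 17.2, 51.3 and 34.2. FBMSC_EV replicate 1 was high in the first of these genes and FBMSC_EV replicate 2 in the second, and without FBMSC_EV replicate 1 the list median was 0.16.

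Neutrophil genes had no common direction, with 11 of 20 above 0. S100A9, a calcium-binding protein of neutrophils and monocytes, ranged from 148 to 1028 under PBS and from 172 to 1674 under FBMSC_EV. The summed neutrophil level was 2379, 3833 and 1165 under PBS and 5226, 1294 and 1786 under FBMSC_EV. The list median was 0.15 with all libraries and turned to -0.53 without FBMSC_EV replicate 1. CAMP, an antimicrobial peptide stored in granules and the most abundant member of the immature granule list, stood at 122, 362 and 81.1 against 328, 65.4 and 97.6. Eosinophil and basophil genes had 6 of 8 above 0, and CCR3, the eotaxin receptor, stood at 14.3, 4.91 and 2.71 against 8.05, 10.8 and 10.6.

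Platelet genes were mostly lower after FBMSC_EV, at 15 of 17 tested members (all genes below 0: 47.9%) and a median of -0.49. Of the 17, 1 had an unadjusted p under 0.05 on the lower side (all genes: 2.71%). With FBMSC_EV below, 2 had no overlap (all genes: 4.91%). PF4V1, a platelet chemokine related to PF4, stood at 20.1, 14.9 and 18.9 under PBS and 5.57, 6.05 and 3.89 under FBMSC_EV (log2 difference -1.63, SE 0.43, limma adjusted p = 0.754). Its groups were far apart, and its means differed 3.48-fold. PPBP, the most abundant platelet gene, overlapped, at 126, 168 and 126 against 198, 75.8 and 108 (log2 difference -0.24). Its FBMSC_EV replicate 1 was above every PBS library and replicates 2 and 3 were below them. The summed level was 410, 360 and 341 under PBS and 411, 201 and 195 under FBMSC_EV, so the lower sums came from FBMSC_EV replicates 2 and 3. Without FBMSC_EV replicate 1 the median was -0.82, and without FBMSC_EV replicate 3 it was -0.25. In ABPC_EV the sum ran from 123 to 732.

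Of the cells that blood should lack, 5 of 18 stromal and endothelial genes in the table were tested, and the mesenchymal genes COL1A2 and PDGFRA were at 0 in all PBS and FBMSC_EV libraries. The summed level of that list ranged from 30.9 to 41.3 under PBS and from 31.8 to 45.7 under FBMSC_EV. ESAM, an adhesion molecule of endothelium and platelets, stood at 6.80, 6.24 and 7.48 against 4.29, 4.27 and 2.32. In the dendritic cell list, CLEC4C, a marker of plasmacytoid dendritic cells, stood at 0, 0 and 0.319 against 1.04, 0.569 and 2.22, with 0, 0 and 3 recovered reads under PBS and 12, 8 and 27 under FBMSC_EV. LILRA4, another plasmacytoid marker, overlapped at 5.98, 0.873 and 2.51 against 4.14, 1.38 and 1.38.

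Ribosomal protein genes were lower as a family. Of 74 tested, 69 lay below 0 (all genes: 47.9%), 19 had no overlap with FBMSC_EV below (all genes: 4.91%) and 6 had an unadjusted p under 0.05 on the lower side (all genes: 2.71%), with a median of -0.39. The summed level was 13053, 15786 and 10435 under PBS and 8278, 8668 and 9720 under FBMSC_EV, with no overlap, and the median was -0.22 without PBS replicate 2. Under ABPC_EV the sum was 9349, 6364 and 6759, and the list median of ABPC_EV minus PBS was -0.76. Ribosomal protein genes have many processed pseudogenes that could share reads with them. The erythroid sum moved in the same direction in the same libraries, and its part in the ribosomal difference was not tested.

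Lists of energy metabolism and redox defence also had medians below 0. For ABPC_EV minus PBS the medians were -0.38 for oxidative phosphorylation, -0.53 for the mitochondrial genome and -0.41 for antioxidant genes. The nuclear genes of oxidative phosphorylation had 43 of 63 below 0 (all genes: 47.9%) and 11 with no overlap on the lower side (all genes: 4.91%). Their median was -0.12, or -0.18 without PBS replicate 1 and -0.07 without PBS replicate 2. ATP5F1E, a subunit of ATP synthase, stood at 239, 257 and 177 under PBS and 143, 88.6 and 108 under FBMSC_EV, and NDUFA8, of complex I, at 19.8, 18.0 and 11.3 against 9.06, 9.31 and 10.2. Neither overlapped. The mitochondrial genome had 7 of 11 members below 0 (all genes: 47.9%). Its median was -0.40, or -0.04 without PBS replicate 3 and -0.58 without PBS replicate 1. Its summed level was 148, 132 and 170 under PBS and 127, 114 and 81.0 under FBMSC_EV, with no overlap. Its members differed among themselves: COX3 stood at 35.7, 4.08 and 18.1 against 5.60, 2.02 and 0.3, while ATP6 stood at 0, 0 and 3.36 against 4.81, 2.40 and 6.31. ATP6 rested on 0, 0 and 30 recovered reads under PBS, 53, 32 and 73 under FBMSC_EV and 0 in each ABPC_EV library. ND4, of the same list, had 686, 1112 and 1054 reads under ABPC_EV. Whether reads of ATP6 were assigned elsewhere was not tested. Antioxidant genes had 21 of 31 below 0 (all genes: 47.9%). Their median was -0.17, or -0.02 without PBS replicate 1 and -0.29 without PBS replicate 3. GPX1, a glutathione peroxidase abundant in red cells, averaged 3755 ± 2013 against 1875 ± 618 (SD, n = 3 each), and PRDX6, a peroxiredoxin, stood at 239, 197 and 84.9 against 99.6, 80.6 and 63.3. NQO2, a quinone reductase, lay the other way with a narrow overlap, at 2.14, 4.13 and 2.52 against 7.04, 4.46 and 4.06.

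Among genes with a symbol, a mean scaled value of at least 5 and no overlap, the smallest unadjusted p on the higher side belonged to ALDH1A1, a retinaldehyde dehydrogenase. It stood at 7.02, 4.07 and 2.56 under PBS, 13.7, 10.4 and 9.25 under FBMSC_EV and 6.85, 7.56 and 4.96 under ABPC_EV. Its PBS and FBMSC_EV means of 4.55 ± 2.27 and 11.1 ± 2.29 (SD, n = 3 each) stood 2.44-fold apart (log2 difference 1.19, SE 0.30, limma adjusted p = 0.722). CNIH4, a cargo receptor for the export of membrane proteins from the endoplasmic reticulum, stood at 6.49, 7.71 and 4.48 against 12.1, 11.8 and 14.7. GIMAP4, a GTPase of lymphocytes, stood at 19.3, 10.2 and 11.2 against 20.1, 24.6 and 26.9, a gap of less than 1 between PBS replicate 1 and FBMSC_EV replicate 1.

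HMGB2, a chromatin protein, stood at 10.6, 12.4 and 8.77 under PBS and 19.1, 17.9 and 14.6 under FBMSC_EV. RHBDF2, which escorts the protease that sheds TNF to the cell surface, stood at 4.80, 4.20 and 3.92 against 8.11, 6.41 and 7.91. Both were clear of overlap, as the rule that named them required, with limma adjusted p values of 0.884. ZC3HAV1, an antiviral protein that binds CpG-rich RNA, stood at 8.88, 8.17 and 9.93 against 13.9, 11.8 and 26.5. SLFN5, of the interferon-responsive Schlafen family, stood at 5.95, 3.78 and 5.54 against 7.37, 11.7 and 10.7. LYST, which governs lysosome size, MAP2K1, the kinase MEK1, and RASA2, which switches off RAS, had log2 differences of 0.75, 0.52 and 0.49, and QRSL1, RAP2B, TPCN2 and INPP4A lay between 0.56 and 0.96.

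On the lower side, PRSS47 stood at 54.8, 5.49 and 13 under PBS and 1.05, 0.664 and 0.728 under FBMSC_EV (log2 difference -3.25, SE 0.81, limma adjusted p = 0.722). TMEM158 stood at 17.1, 21.8 and 40.1 against 8.46, 8.21 and 5.50. SERF2 stood at 477, 330 and 236 against 166, 141 and 170. GMDS, the first enzyme of GDP-fucose synthesis, stood at 18.5, 17.7 and 19.3 against 13.8, 9.29 and 7.74, with PBS animals that differed little from each other. C1QBP, a mitochondrial matrix protein, averaged 30.5 ± 8.70 against 14.8 ± 2.84 (SD, n = 3 each). FAM89B, BSCL2 (seipin, which shapes lipid droplets) and PKIG (an inhibitor of protein kinase A) had log2 differences of -0.84, -0.97 and -0.99.

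**Figure D5:**
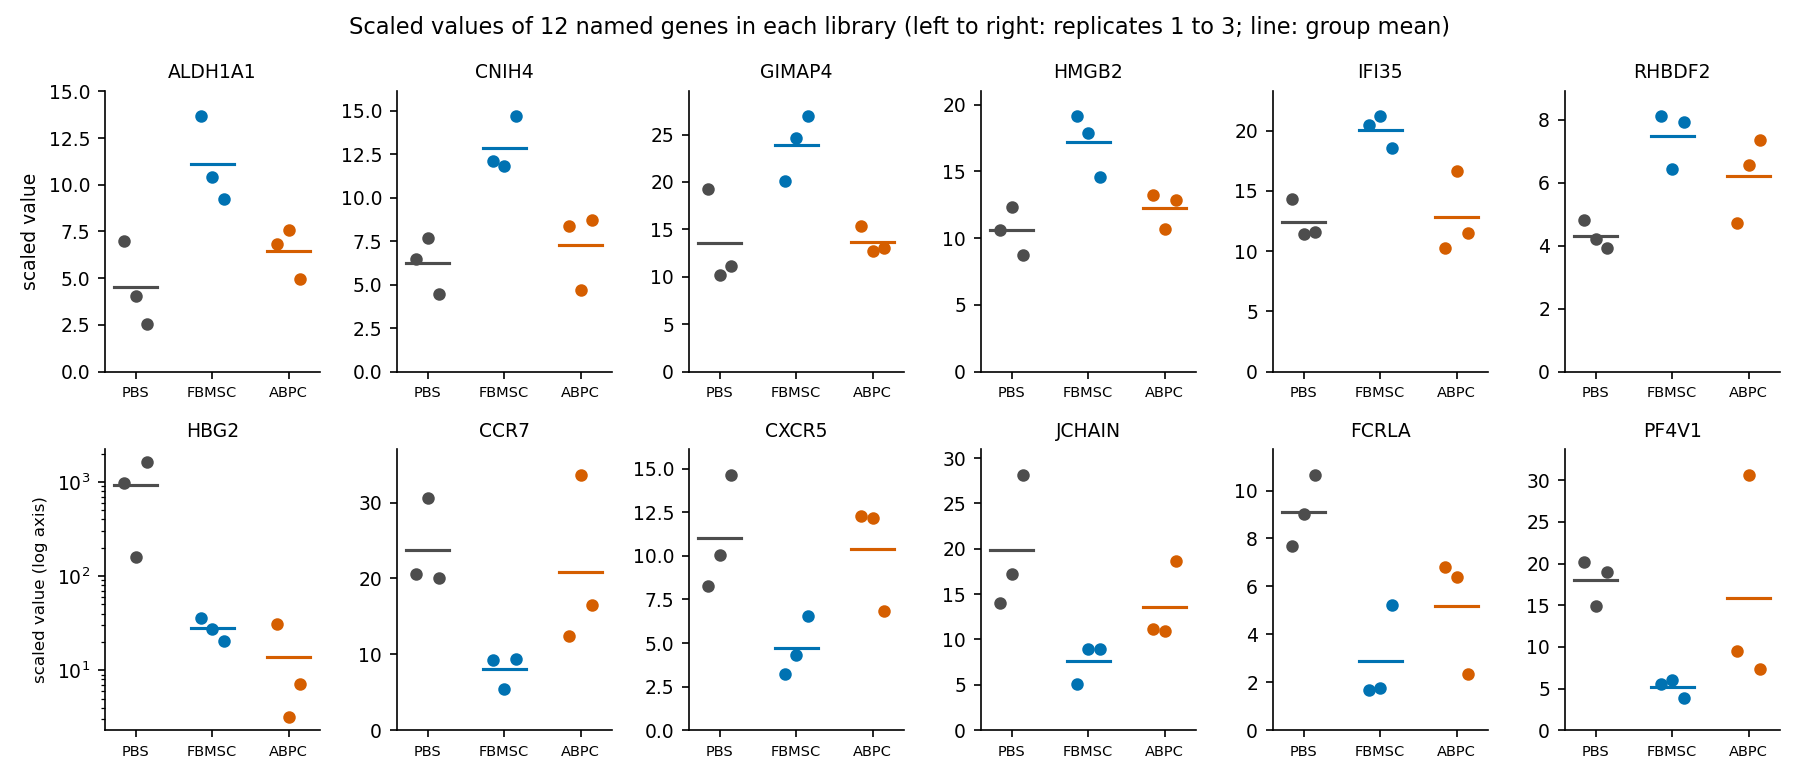
Scaled values of 12 genes named by the rule, in replicates 1 to 3 of each group from left to right, with a line for the group mean (linear axes from 0, except HBG2 on a log axis). The rule required that PBS and FBMSC_EV not overlap, so this holds for all 12 by selection. ABPC_EV lies within or near the PBS range for genes such as CCR7, CXCR5 and GIMAP4 but near FBMSC_EV for HBG2.

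The remaining lists had medians close to that of all genes. The vesicle release list, which holds tetraspanins and the sorting machinery that forms vesicles in cells, had 16 of 29 members above 0 and a median of 0.03. CD9, its most abundant member, stood at 94.3, 86.4 and 53.7 under PBS and 52.5, 34.4 and 48.3 under FBMSC_EV. The senescence and longevity list had 12 of 27 above 0 and a median of -0.04. CDKN1A, the cell cycle inhibitor p21, stood at 3.87, 3.45 and 4.09 against 4.74, 4.98 and 4.09, while CDKN1C, the related p57, stood at 2.60, 1.44 and 2.83 against 3.22, 14.8 and 4.70, where FBMSC_EV replicate 2 set the difference. Medians of the proteasome, chaperone, autophagy, cell cycle, DNA repair, cholesterol, glycolysis, immediate early, TGF-beta and dendritic cell lists lay between -0.08 and 0.07. Regulatory and checkpoint genes gave -0.16, and glucocorticoid-response genes 0.19. Of the TGF-beta and matrix list, FN1, which encodes fibronectin, stood at 5.41, 2.36 and 5.88 against 15.5, 5.32 and 9.82. NBN, of the complex that senses broken DNA, stood at 171, 121 and 62.7 against 64.5, 31.3 and 45.6, with overlap only at 1 library of each group.

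Further members named by the same rule were mostly level between the groups. TRIM22, the most abundant interferon-stimulated gene, averaged 58.8 ± 15.9 under PBS and 67.4 ± 16.4 under FBMSC_EV (SD, n = 3 each). HSPA8, a constitutive chaperone, averaged 221 ± 40.0 against 265 ± 19.1 (SD, n = 3 each), and TGFB1, the main TGF-beta ligand of leukocytes, 77.8 ± 13.2 against 82.6 ± 19.7 (SD, n = 3 each). PCNA, the sliding clamp of DNA replication, averaged 9.99 ± 1.88 against 10.6 ± 1.27 (SD, n = 3 each). Each of these differences was smaller than the sum of the SDs of its groups.

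A few did not overlap (all genes, either direction: 9.6%). Those given here were named for the smallest unadjusted p of their list in that direction. PSMC2, an ATPase of the proteasome cap, stood at 21.2, 24.8 and 19.7 under PBS and 14.0, 13.9 and 16.0 under FBMSC_EV (log2 difference -0.55, SE 0.21, limma adjusted p = 0.960). IDI1, an isomerase of cholesterol synthesis, stood at 1.76, 1.09 and 1.49 against 2.45, 2.27 and 2.50. NPC1, which exports cholesterol from lysosomes, stood at 3, 1.67 and 2.44 against 4.41, 3.58 and 3.34. RRM2, a ribonucleotide reductase subunit, stood at 0.541, 0.692 and 0.870 against 1.15, 1.25 and 1.23, on 13, 25 and 40 reads against 65, 86 and 73. FKBP5, a chaperone induced by glucocorticoids, overlapped, at 6.01, 5.88 and 10.9 against 11.3, 11.6 and 10.6. Leaving out 1 library turned the sign of the median of the neutrophil, immature granule, T cell, dendritic cell, inflammation, immediate early, glucocorticoid, class II, proteasome, chaperone, autophagy, vesicle release, senescence, DNA repair, cell cycle, glycolysis, TGF-beta and regulatory lists.

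The FBMSC_EV animals were also compared directly with the ABPC_EV animals, since both vesicle groups share the PBS animals as reference. Again 0 of 9812 genes passed (0.0%), with 533 at an unadjusted p under 0.05 (5.43%). CCR7 stood at 12.4, 33.7 and 16.5 under ABPC_EV, a log2 difference of FBMSC_EV minus ABPC_EV of -1.19 (SE 0.36, limma adjusted p = 0.829). CXCR5 stood at 12.3, 12.2 and 6.81 under ABPC_EV, a difference of -1.0 (SE 0.30, limma adjusted p = 0.829). GMDS was the reverse, at 3.22, 4.84 and 2.59 under ABPC_EV, a difference of 1.30 (SE 0.25, limma adjusted p = 0.739), so that FBMSC_EV lay between PBS and ABPC_EV. HBB was lower still under ABPC_EV, at 416, 220 and 217 in units of 1000, a difference of 1.14 (SE 0.47, limma adjusted p = 0.910). The median difference from ABPC_EV was 0.87 for the erythroid list, 0.81 for interferon-stimulated genes and -0.45 for B cell genes, against 0.03 for all genes. It was 0.03 for the cytotoxic list and 0.35 for the ribosomal protein list.

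Which genes passed depended on the scale. On the per-million values as deposited, the median log2 difference of all genes was 0.70, and 50.9% of 10596 genes had every FBMSC_EV library above every PBS library, while 0.0849% had every one below. On that scale 27 genes (0.255%) passed as higher and 1 (0.00944%) as lower. The higher genes with a symbol for a protein were ALDH1A1, S100P, IFIT2, SERPINB10, MX1, IFI44, CNIH4, ATP6, PARP9, ISG15, SECTM1, CHST6 and GIMAP4, among them the interferon-stimulated IFIT2, MX1, IFI44 and ISG15, and the lower gene was HBG2. The log2 differences there were 2.03 for ALDH1A1 (limma adjusted p = 0.0116) and -3.43 for HBG2 (limma adjusted p = 0.0279). S100P, SERPINB10, PARP9, SECTM1 and CHST6 are named here only because they passed on that scale. All 34 list medians were above 0 as deposited, so no list was lower on that scale in absolute terms. Relative to the shift of 0.70, the deposited medians were -0.19 for erythroid, -0.56 for B cell, -0.35 for platelet, -0.04 for ribosomal protein, -0.39 for mitochondrial genome, 0.45 for cytotoxic and 0.74 for interferon-stimulated genes. These values come out too high for abundant lists such as ribosomal protein, because abundant genes shifted by more than 0.70. Some lists below 0 on the scaled values lay above the shift there, among them oxidative phosphorylation at 0.09, MHC class II at 0.02 and glycolysis and hypoxia at 0.26. The scales differ by a single factor per library, and log2(value + 1) shrinks that shift in low genes. HBA moved from -1.26 scaled to -0.18 as deposited, and GPX1 from -0.93 to 0.16. Setting a list against 0.70 therefore cannot show whether its lower side held relative to other genes.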

How the data were processed

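RNA sequencing was done on whole blood of 9 macaques, and 6 libraries, 3 PBS and 3 FBMSC_EV, enter the main contrast. Per the labels' protocols, a NEBNext Ultra RNA library kit was used with paired-end Illumina sequencing. Per the submitters' processing notes the genome build was Mmul_10. Aligner, counting program, strand setting and any globin removal were not given in the sources used. The table holds deposited log2 values of 24371 genes, to which 0.5 had been added before the log2. This was read from the values, which sum to 1000000 per library (1000002 in ABPC_EV replicate 2) once undone.

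The log2 was undone and each library divided by its median-ratio factor. Whole reads came from 1 divisor per gene (tolerance 0.001), found for 21550 of the 21551 genes above 0 in at least 2 libraries. HBB had several possible divisors, so no total depth is given. Genes with a scaled value of at least 1 in 3 or more libraries were tested with limma 3.58.1 in R 4.3.3 (trend, log2(scaled value + 1), 3 groups in 1 fit, Benjamini-Hochberg, threshold 0.05), which was tested on simulated data. Single values were compared by exact permutation tests. Libraries come from separate animals.

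Named genes are the 15 with the smallest p in each direction (symbol, mean scaled value of at least 5, no overlap of groups), each list's most abundant member and its smallest unadjusted p under 0.05 in each direction, the globins, and any gene passing where 5 or fewer did. Other list members, described for their role or level, were chosen after their values were seen. The members and the 34 lists (12 of cell types, 22 of processes) were chosen with earlier results of these data known. Alternatives covered scaling, pseudocount, filter, voom, a replicate block, and leaving out each library. Some genes that the rule names are not reported here.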

Additional observations from a re-analysis of the deposited data

How the results depend on the processing

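With 3 animals a group, an exact test cannot go below 0.1, and low genes rest on few reads. The counts of 0 higher and 0 lower genes held with pseudocounts of 0.5 and 0.1, upper-quartile scaling, a mean of at least 5, voom on recovered reads and the 6 libraries alone. As deposited there were 27 higher and 1 lower. Without the erythroid list 2 were higher (MIR186 and LOC114674792), where the median of all genes was 0.38, and with no filter 1 was higher (LOC114674792). Leaving out 1 library gave 0 higher and 0 to 2 lower, the 2 (LOC106996566 and LOC114673003) without PBS replicate 2. FBMSC_EV minus PBS for genes with a scaled value of at least 1 ranged, with 1 library left out, from -17.5 (without PBS replicate 2) to 163.5 (without PBS replicate 3), and was 2467 on the values as deposited. As deposited, 9 of the genes named for a small p or as globins turned to log2 differences above 0. These were FAM89B at 0.16, SERF2 at 0.012, GMDS at 0.17, C1QBP at 0.060, PKIG at 0.039, NDUFA8 at 0.31, PSMC2 at 0.46, PRDX6 at 0.093 and HBA1 at 0.30. Genes named only as the most abundant of their list turned as well, among them CD79A at 0.24, ATP5F1E at 0.086, CD9 at 0.30 and GPX1 at 0.16. The median of all genes was itself 0.70 on that scale. The share of globin among recovered reads was not run, because the reads of HBB were not recovered.

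The labels number the animals 1 to 3 in each group. Deviations of same-numbered PBS and FBMSC_EV libraries correlated at 0.18, -0.14 and 0.29, with mixed signs. With 3 animals a group this cannot decide whether the numbers pair the animals. The fit with the replicate block called 1 gene higher (LOC114673615, limma adjusted p = 0.0394) and 0 lower, and not every library correlated best with its own number.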
